A study of Mus musculus with 12 samples.

Results

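The testis keeps its seminiferous tubules apart from the blood vessels and Leydig cells around them by a basement membrane and layers of peritubular cells, and the genes described here build, crosslink and cut that extracellular matrix. The members were chosen by symbol: collagen chains (Col), laminin chains (Lama, Lamb, Lamc), nidogens (Nid), fibrillins (Fbn), lysyl oxidases (Lox), matrix metalloproteinases (Mmp), their tissue inhibitors (Timp) and the Adamts proteases, together with Fn1, Eln and Sparc. Genes on the X chromosome were left out. This gave 112 members of 24516 genes. Of these, 2 match by spelling only: Col4a3bp, a ceramide transporter, and Loxhd1, a protein of inner ear hair cells.

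Total RNA was sequenced from whole testes of 12 male C57BL/6 mice, 3 at each of 3, 6, 12 and 18 months (3M, 6M, 12M and 18M). All mice were wild type as far as the labels say and received no treatment that the labels name. Age is the one factor that the labels set between the groups. No label names a litter or cage for any mouse. A difference of litter, cage or batch that goes with age cannot be told apart from age. The comparison asks how matrix genes of the testis change between young adulthood and old age. The deposited counts summed to between 50924104 reads (6M-2) and 71803379 reads (18M-3) per library. The germ cell markers, which define this tissue, summed to between 20980 and 31383 FPKM. The members took between 0.323% (18M-3) and 0.504% (3M-2) of the reads assigned to genes, and between 0.178% (12M-2) and 0.195% (6M-3) without 2 assembled transcripts of Col19a1 that are described further down.

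Collagens are trimers of chains wound around each other. The fibrillar types (I, II, III, V, XI) form the cable-like fibres of connective tissue, while type IV forms the flat mesh of basement membranes. The class of fibrillar chains counted below also holds Col24a1 and Col27a1. Laminins, each built of an alpha, a beta and a gamma chain, form the other mesh of the basement membrane, and nidogens join both meshes. Matrix metalloproteinases cut these proteins, TIMPs block the metalloproteinases, and ADAMTS proteases cut procollagens and proteoglycans. In bulk tissue, fewer cells of a type and less RNA per cell cannot be told apart.

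A group of matrix genes fell with age. Col1a1 and Col1a2, the chains of type I collagen, Col3a1, the chain of type III collagen, Eln, the elastin of elastic fibres, Lamc1, the most widely used laminin gamma chain, and Adamts2, the protease that trims the N-terminal propeptide from procollagens, all had a lower level in each of the 6 mice of 12M and 18M than in each of the 6 mice of 3M and 6M. These 6 genes, and no other member, passed the test of the slope on age at an adjusted p of 0.05 or less (edgeR quasi-likelihood test over 18545 genes, Benjamini-Hochberg adjustment). All 6 fell and 0 members rose, out of 98 members with enough reads to be tested. Over all genes tested, 0.313% were called falling and 0.0971% rising, beside 6.12% and 0% of the tested members. The other 14 members did not pass the filter on low counts and are described further down.

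The levels that follow are CPM, the reads of a gene scaled to a common library size by the TMM method, which compare mice within 1 gene and not genes with each other. Col1a2 stood at 15.4, 21.4 and 14.9 CPM in the 3 mice of 3M, at 12.5, 14.3 and 12.0 in 6M, at 8.78, 8.99 and 9.0 in 12M, and at 9.62, 6.85 and 7.0 in 18M. The mean went from 17.2 ± 3.62 (SD, n = 3) at 3M to 7.82 ± 1.55 (SD, n = 3) at 18M, which is 45.4% of the 3M mean. Its slope was -0.0754 ± 0.0103 log2 units per month (SE, n = 12, edgeR adjusted p = 0.0065), or -1.13 over the 15 months between the youngest and oldest mice.

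Col1a1, which supplies the other chain of type I collagen, stood at 6.90, 12.0 and 7.27 CPM in 3M and at 5.80, 7.70 and 6.81 CPM in 6M. It stood at 4.63, 4.92 and 4.35 CPM in 12M and at 5.12, 3.69 and 4.39 CPM in 18M. Mouse 3M-2 was the highest for both chains, and the 2 older ages overlapped. The slope of Col1a1 was -0.0664 ± 0.0129 per month (SE, n = 12, edgeR adjusted p = 0.048). Per length, the RNA of Col1a1 was less than that of Col1a2 in each library: the ratio of their FPKM (fragments scaled by transcript length and library size) ran from 0.395 to 0.552, with a median of 0.471.

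Col3a1, whose product is found in the same fibres as type I collagen, was at 8.75, 13.5 and 8.15 CPM in 3M, at 8.06, 8.26 and 8.5 in 6M, at 6.24, 6.04 and 4.76 in 12M, and at 5.96, 4.88 and 4.35 in 18M. The slope was -0.0683 ± 0.0115 per month (SE, n = 12, edgeR adjusted p = 0.025). Adamts2, which acts on the products of these 3 genes, was at 3.91, 5.41 and 3.88 CPM in 3M, at 2.98, 3.27 and 4.13 in 6M, at 2.46, 2.64 and 2.29 in 12M, and at 2.80, 2.44 and 2.03 in 18M. Its slope was -0.0583 ± 0.0115 per month (SE, n = 12, edgeR adjusted p = 0.048). For both genes 3M-2 was the highest of all mice, and the 12M and 18M mice lay in 1 low range.

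Eln was at 4.46, 6.38 and 5.11 CPM in 3M, at 3.58, 4.22 and 4.64 in 6M, at 2.83, 3.40 and 2.94 in 12M, and at 2.94, 2.3 and 3.07 in 18M. Its 18M mean was 52.1% of its 3M mean, and its slope was -0.0620 ± 0.0103 per month (SE, n = 12, edgeR adjusted p = 0.025). Lamc1 changed less: it was at 9.11, 11.1 and 9.69 CPM in 3M, at 8.76, 9.05 and 8.81 in 6M, at 7.55, 8.36 and 7.49 in 12M, and at 8.07, 5.98 and 6.22 in 18M. Its 18M mean was 67.9% of its 3M mean, with a slope of -0.0361 ± 0.0068 per month (SE, n = 12, edgeR adjusted p = 0.042). The separation of the 6 older from the 6 younger mice, seen in all 6 genes, was found in 1.3% of all genes tested, and the opposite separation in 0 tested members and 1.07% of all genes. It follows from the same values as the slope and is not a second piece of evidence.

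**Figure D1:**
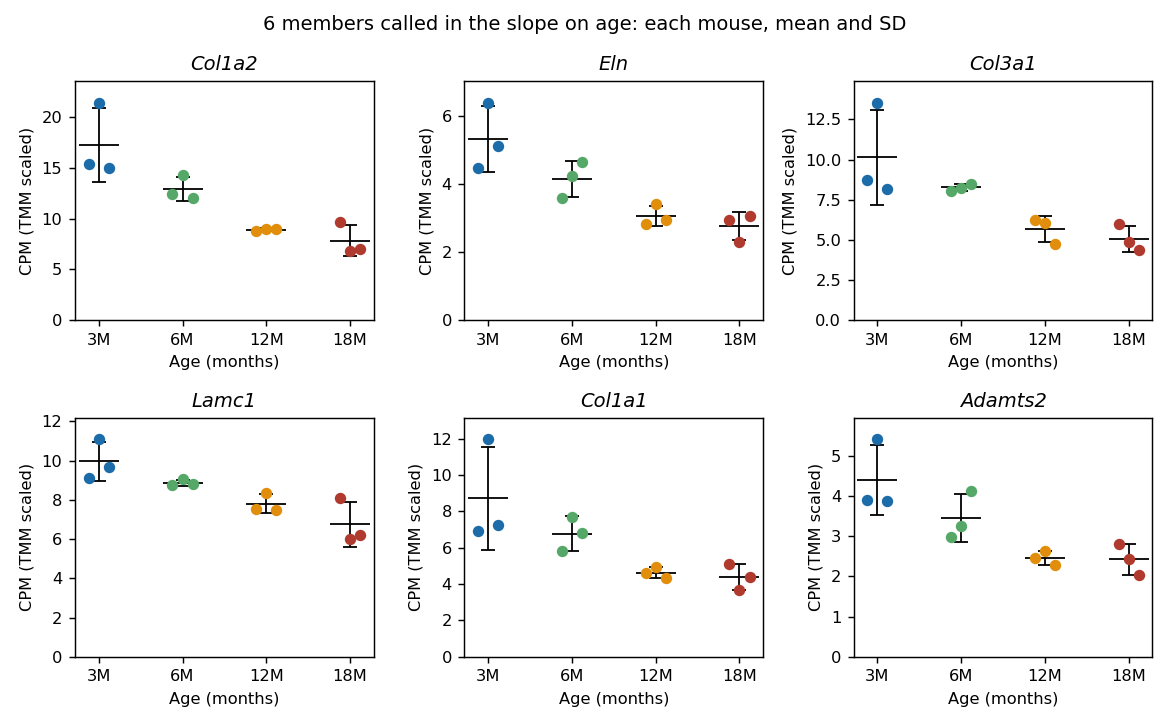
Level of the 6 members called in the slope on age, in CPM on an axis that starts at 0, with 1 point per mouse, the mean as a line and the SD as bars (n = 3 per age). In each panel the 6 points of 12M and 18M lie below the 6 points of 3M and 6M, and 3M-2 is the highest point.

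The firmness of these calls differed. Col1a2 was called under each of 21 alternative settings, Eln under 17 and Col3a1 under 16, while Lamc1 was called under 7, Col1a1 under 6 and Adamts2 under 4. No slope of the 6 changed sign. The Adamts2 slope went to -0.0239 ± 0.0079 per month (SE, adjusted p = 0.20) when transcripts within introns or on the opposite strand were summed too (all class codes), which adds to its 2041 reads the 1772 reads of a transcript called antisense to it. In the other alternatives per month, the slopes of the 6 stayed within 1.5 times their values. The count of 6 depended on single mice: without 18M-1 it was 13, without 12M-3 it was 4, without 3M-1, 3M-2, 6M-1, 6M-3 or 12M-1 it was 3, without 3M-3, 12M-2 or 18M-3 it was 2, and without 6M-2 or 18M-2 it was 1. The falling calls over all genes moved too. They were 58 of 18545 with all mice and 163 of 18740 without 18M-1. Without 6M-2 they were 21 of 18784, without 18M-2 16 of 18788 and without 18M-3 13 of 18739. With DESeq2 in place of edgeR, 13 of 111 members were called falling and 1 rising (Col5a1, a chain of type V collagen). DESeq2 called more genes of the whole series too: 336 falling and 232 rising of 22627, where edgeR called 58 and 18 of 18545. The 13 were the 6 genes above with Lamb1, Lamc3, Nid1, Col4a1, Col4a2, Col6a1 and Mmp2.

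The summed reads of all 6 genes came from 1 transcript model each, the RefSeq model. At Adamts2 the assembly also put 1772 reads on MSTRG.2764.1, a transcript called antisense that the sum leaves out. Reads may therefore be split between it and the 2041 reads of Adamts2. On mm10 the 6 genes lie on chromosome 6 at 4505618 to 4541543 (Col1a2), chromosome 11 at 94936224 to 94953042 (Col1a1), chromosome 1 at 45311538 to 45349706 (Col3a1), chromosome 5 at 134702595 to 134747323 (Eln), chromosome 1 at 153218922 to 153332786 (Lamc1) and chromosome 11 at 50602085 to 50807573 (Adamts2). The libraries do not mark the strand. Of the Eln transcript, 3.95% of bases lie on exons of an antisense RNA (Gm30003), and reads there cannot be told apart.

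Promoter windows of 250 bases before to 50 bases after the start were held for Col1a2, Col3a1 and Adamts2 (RefSeq, GRCm38.p6, the build also called mm10). No window was held for Col1a1, Eln and Lamc1. The held windows are shown because their genes fell together, and so that their base composition can be compared. Capitals mark CCAAT or its reverse complement ATTGG, searched on both strands. The windows are chr6:4505368-4505667 for Col1a2, chr1:45311288-45311587 for Col3a1 and chr11:50601835-50602134 for Adamts2, all on the plus strand.
Col1a2: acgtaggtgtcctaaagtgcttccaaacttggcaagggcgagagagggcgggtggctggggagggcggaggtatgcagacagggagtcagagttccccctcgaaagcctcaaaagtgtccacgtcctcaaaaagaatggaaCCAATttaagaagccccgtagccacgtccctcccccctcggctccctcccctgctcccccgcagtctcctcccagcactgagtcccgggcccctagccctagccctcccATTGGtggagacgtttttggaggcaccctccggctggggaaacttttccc
Col3a1: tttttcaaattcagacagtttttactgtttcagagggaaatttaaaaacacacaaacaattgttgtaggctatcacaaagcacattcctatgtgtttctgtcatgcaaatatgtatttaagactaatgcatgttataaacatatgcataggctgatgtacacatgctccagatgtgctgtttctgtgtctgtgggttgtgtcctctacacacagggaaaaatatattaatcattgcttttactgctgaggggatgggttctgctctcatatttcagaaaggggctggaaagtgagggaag
Adamts2: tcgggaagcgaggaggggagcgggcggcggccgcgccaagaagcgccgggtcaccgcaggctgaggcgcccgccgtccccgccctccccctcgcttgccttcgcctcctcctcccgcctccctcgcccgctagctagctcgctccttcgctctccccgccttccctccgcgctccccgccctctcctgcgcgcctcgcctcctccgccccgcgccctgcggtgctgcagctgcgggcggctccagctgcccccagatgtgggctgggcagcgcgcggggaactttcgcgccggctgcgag

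The 3 windows had little in common. Col1a2 held 2 CCAAT boxes, Col3a1 and Adamts2 held 0, and 37.4% of all 32851 promoter windows of that length held at least 1. GGGCGG or its reverse complement CCGCCC was found 5 times in Adamts2, 2 times in Col1a2 and 0 times in Col3a1, against at least once in 35.7% of all windows. TATAAA or TTTATA was found once in Col3a1 and in 13.6% of all windows. The G and C share was 77.3% in Adamts2, 61.0% in Col1a2 and 37.7% in Col3a1. Of the 80 windows of 73 members, 28.7% held CCAAT or its reverse complement. GGGCGG or its reverse complement was in 55% of them, and TATAAA or TTTATA in 20%. A match of letters is a description and not a measured binding site.

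The other members are given by class and role, with those at an unadjusted p of 0.05 or less in the slope on age named because of their values. At that looser threshold, 27 of the 98 tested members fell and 6 rose, which are 27.6% and 6.12%, beside 9.23% and 8.26% of all genes tested. The filter keeps a member that is high in only 1 age, so these shares describe the tested members and not all 112. Slopes below 0 were found in 58 of the 98 (59.2%, beside 50.6% of all genes). The median slope was -0.0072 per month over the tested members and -0.0002 over all genes tested.

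**Figure D2:**
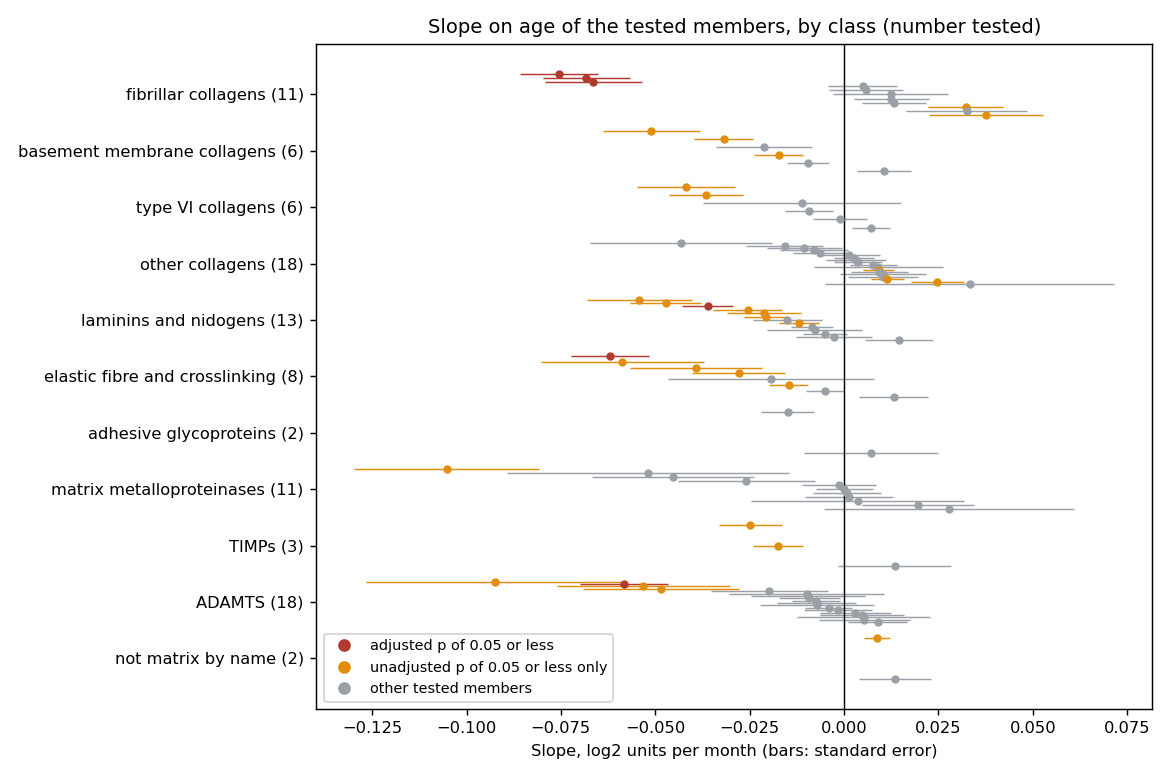
Slope on age of each of the 98 tested members in log2 units per month, with the standard error as bars, by class. Red points passed the adjusted threshold, orange points the unadjusted one only, and grey points neither. The red points lie at -0.036 and lower, in 4 classes.

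Among the 11 fibrillar chains, the fall was not shared. Beside the 3 that fell, 8 had slopes above 0, of which Col5a1 and Col5a3, chains of type V collagen, which starts and limits the width of type I fibres, reached the unadjusted threshold. Col5a1 was at 20.5, 33.1 and 21.6 CPM in 3M and at 40.1, 34.3 and 27.8 CPM in 18M, with a slope of 0.032 ± 0.010 per month (SE, n = 12, edgeR adjusted p = 0.149). When transcripts equal to RefSeq were counted alone, the slope turned to -0.073 ± 0.055 (SE, edgeR adjusted p = 0.63), so its direction depends on the assembled transcripts that are counted. The ages overlapped, and mouse 3M-2, highest among the young for the genes that fell, was also the highest of 3M here.

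Of the 13 laminin and nidogen genes, 12 had slopes below 0 and 7 reached the unadjusted threshold, Lamc1 among them. Lamb1, the beta chain that pairs with Lamc1 in the common laminins, was at 10.5, 11.6 and 10.5 CPM in 3M, at 9.22, 10.8 and 8.90 in 6M, at 7.83, 7.36 and 7.15 in 12M, and at 8.91, 5.28 and 6.01 in 18M, with a slope of -0.0473 ± 0.0095 per month and an edgeR adjusted p of 0.0517, just outside the threshold. Lamc3, a gamma chain of more limited use across tissues, was at 16.6, 17.8 and 16.0 CPM in 3M and at 14.5, 7.23 and 8.01 in 18M. Per length, the RNA of Lamc3 was more than that of Lamc1 here, at 1.94 and 0.971 FPKM over all mice. Mouse 18M-1 was set apart in Lamb1 and Lamc3, near the younger mice, and these 2 genes were called without it and by DESeq2. Nid1, which links laminin to type IV collagen, had a slope of -0.021 per month (edgeR adjusted p = 0.135) and was called by DESeq2 and with the replicate number as a block. Lama2, Lama5 and Lamb2 had slopes of -0.026, -0.012 and -0.021 at the unadjusted threshold. Lamb3, a chain of the laminin of epithelial anchoring, was the 1 gene of the class with a slope above 0, at 0.015 (edgeR adjusted p = 0.42).

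The basement membrane collagens had 6 members, of which 5 had slopes below 0 and 3 reached the unadjusted threshold. Col4a1, which with Col4a2 makes the common type IV trimer, was at 14.7, 21.8 and 16.1 CPM in 3M, at 12.3, 12.1 and 13.7 in 6M, at 9.54, 11.7 and 9.34 in 12M, and at 13.3, 7.74 and 8.97 in 18M (slope -0.051 ± 0.013 per month, edgeR adjusted p = 0.104). Col4a2 went from 19.7, 20.8 and 17.3 CPM in 3M to 16.5, 11.8 and 13.2 in 18M (slope -0.032 ± 0.008 per month, edgeR adjusted p = 0.102). As for the laminins, 18M-1 was the highest of the 18M mice. Both genes were called without that mouse and by DESeq2. Col18a1, the source of endostatin, had a slope of -0.017, while Col15a1, its relative, had 0.011 and did not reach the unadjusted threshold. Col4a3 and Col4a4, chains of the type IV trimer of kidney and other specialised membranes, had slopes of -0.0096 and -0.021 and did not reach it either.

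Col4a1 and Col4a2 are read in opposite directions from 1 short stretch, and for this reason their shared promoter is shown. It holds the annotated start of Col4a2, but 86.1% of the Col4a2 FPKM came from an assembled model that begins 129370 bases downstream. The windows of both genes overlap in 78 bases, chr8:11312777-11312854 (RefSeq, GRCm38.p6, plus strand). Capitals mark the 22 bases from the start of Col4a2 at 11312805 to the start of Col4a1 at 11312826, so the transcripts as annotated overlap at their 5′ ends.
Col4a1 and Col4a2 shared stretch: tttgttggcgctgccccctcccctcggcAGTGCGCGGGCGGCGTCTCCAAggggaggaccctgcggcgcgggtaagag

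The type VI collagens, which form beaded filaments around cells, had 2 of 6 members at the unadjusted threshold, both falling. Col6a1 was at 9.55, 12.0 and 8.92 CPM in 3M and at 8.31, 6.55 and 5.47 in 18M (slope -0.037 ± 0.010 per month, edgeR adjusted p = 0.116), and Col6a2, its partner and neighbour, had a slope of -0.042 (edgeR adjusted p = 0.153). All 3 mice of 18M were below all 3 of 3M for Col6a1 but not for Col6a2. Col6a1 was called by DESeq2 and without 18M-1. Col6a4 and Col6a5 had slopes of 0.0072 and -0.0012, neither at the unadjusted threshold.

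In the elastic fibre and crosslinking class, 5 of 8 members reached the unadjusted threshold and all 5 had slopes below 0: Eln, Fbn1 (-0.028) and Fbn2 (-0.015), which form the microfibrils on which elastin is laid down, and Lox (-0.039) and Loxl2 (-0.059), which crosslink collagen and elastin. Loxl2 was called without 18M-1, with a slope of -0.098. Loxl1, the lysyl oxidase with the highest level, at 5.17 FPKM over all mice, had a slope of -0.0050 and an edgeR adjusted p of 0.64. Of the adhesive glycoproteins, Fn1 (fibronectin) had a slope of -0.015 (edgeR adjusted p = 0.30).

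Sparc, a collagen-binding protein, varied between mice more than with age. It was at 134, 148 and 148 CPM in 3M and at 132, 141 and 159 CPM in 6M, but at 248, 143 and 99.7 CPM in 12M and at 222, 114 and 114 CPM in 18M. Thus 1 mouse of 12M and 1 of 18M lay above all younger mice, while the other 18M mice lay below them. The transcripts behind both high values were not the same: in 12M-1 the RefSeq models NM_009242 and NM_001290817 held 54.5 and 27.9 FPKM, whereas in 18M-1 the assembled model MSTRG.2839.6 held 70.3 FPKM and was at 0 or nearly so in the other 11 mice. The slope of Sparc was 0.0072 (edgeR adjusted p = 0.87).

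Among the matrix metalloproteinases edgeR called none in the slope on age. Of 23 genes, 11 could be tested and 1, Mmp2, reached the unadjusted threshold. Mmp2, a gelatinase of stromal cells, was at 1.0, 1.2 and 0.604 CPM in 3M, at 1.12, 1.12 and 0.441 in 6M, at 0.430, 0.469 and 0.325 in 12M, and at 0.485, 0.322 and 0.267 in 18M. Its slope, -0.1053 ± 0.0245 per month, was the steepest of all tested members, but with an edgeR adjusted p of 0.087 it was not called, and 6M-3 lay among the older mice. It was called by DESeq2 (adjusted p = 0.0072), with the replicate number as a block (edgeR adjusted p = 0.046) and without 18M-1 (edgeR adjusted p = 0.048). Mmp14, a membrane-bound protease that activates the Mmp2 protein, had the highest level of the class, at 6.47 FPKM, and a slope of 0.000073 ± 0.0076 per month. It was at 24.1, 25.8 and 29.7 CPM in 3M and at 28.2, 26.2 and 30.0 CPM in 18M, and the ages overlapped.

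Mmp11, or stromelysin 3, was next at 1.42 FPKM with a slope of -0.0014. Mmp23, which was the third, was at 0.520 to 0.787 CPM in 5 of the 6 mice of 3M and 6M and at 0.448 to 0.584 CPM in 12M and 18M. In 6M-3 alone it was at 2.48 CPM. The 12 members of the class that were not tested, among them the collagenases Mmp1a, Mmp8 and Mmp13 and the stromelysins Mmp3 and Mmp10, had between 0 and 49 reads summed over all 12 libraries. Mmp1b had 0 reads in every library. At this depth a change in these genes could not be detected. Adamts13 and Col9a2, with 10 and 45 reads, were the other members not tested.

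Timp2, an inhibitor with a broad range of targets, had a higher level per length than any metalloproteinase. Timp2 stood at 28 FPKM, Timp3 at 4.28 and Timp4 at 1.03, whereas 21 of the 23 metalloproteinases were under 1 FPKM. Timp2 was at 120, 119 and 108 CPM in 3M, at 120, 129 and 144 in 6M, at 108, 111 and 99.0 in 12M, and at 116, 100 and 94.2 in 18M (slope -0.018 ± 0.007 per month, edgeR adjusted p = 0.21). Timp3 had a slope of -0.025 (edgeR adjusted p = 0.18) and Timp4 one of 0.013 (edgeR adjusted p = 0.67). Of the Timp3 transcript, 37.0% of bases lie on exons of Syn3, which is read from the opposite strand, so that part of its reads is uncertain.

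Of the 19 ADAMTS genes, 18 were tested. Adamts2 was called, and Adamts8 (-0.053), Adamts15 (-0.0485) and Adamts18 (-0.093) reached the unadjusted threshold with levels of 0.0355 to 0.129 FPKM. The 3 with the highest level, Adamts17, Adamts9 and Adamts10, at 1.87, 1.5 and 0.946 FPKM, had slopes between -0.0041 and 0.0089. The procollagen proteases closest to Adamts2, Adamts3 and Adamts14, had slopes of 0.0047 and -0.0072.

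Among the other collagens, 0 of 18 tested members fell and 3 rose at the unadjusted threshold. Col22a1, known from tissue junctions, was at 307, 279 and 282 CPM in 3M and at 311, 333 and 332 in 18M (slope 0.011 ± 0.004 per month, edgeR adjusted p = 0.21). Col16a1, which associates with fibrils, had a slope of 0.0092 (edgeR adjusted p = 0.27), which turned to -0.076 ± 0.041 (SE, edgeR adjusted p = 0.49) with RefSeq-equal transcripts alone. Col9a1, a chain of cartilage collagen, had a slope of 0.025 (edgeR adjusted p = 0.135). The log2 difference of 18M from 3M was 0.17 ± 0.05 (SE) for Col22a1 and 0.12 ± 0.06 (SE) for Col16a1. Col4a3bp, which is no matrix gene, made up the sixth of the rising members, with a slope of 0.0087.

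**Figure D3:**
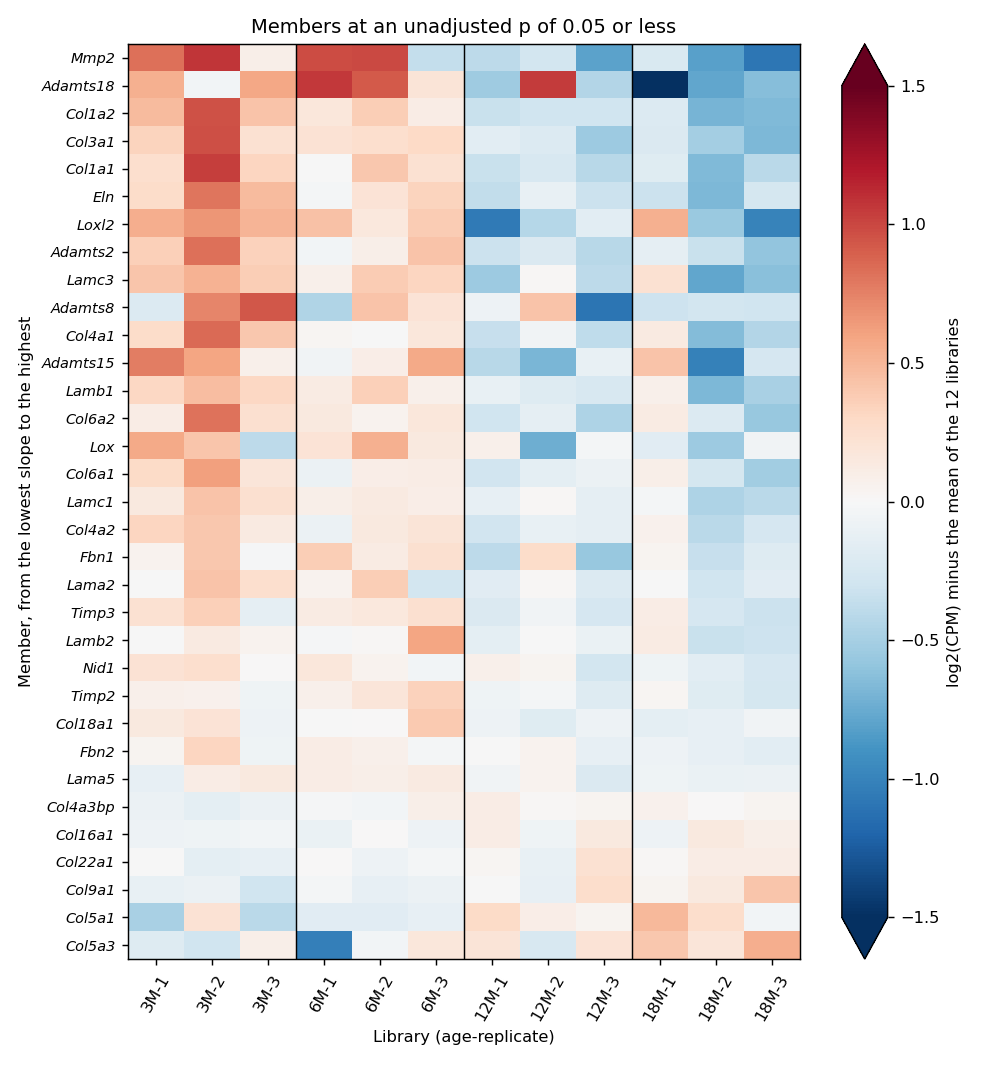
The 33 tested members at an unadjusted p of 0.05 or less, in rows from the lowest slope to the highest, and the 12 libraries in columns. The colour is log2(CPM) minus the mean over the 12 libraries, with the scale ending at 1.5 on both sides. The upper rows turn from red to blue between 6M and 12M, and 18M-1 is paler than the other 18M mice in many of them.

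Between pairs of ages edgeR called no member when each pair was fitted alone. From 3M to 18M, edgeR called 0 of 97 members in either direction (0.0441% falling and 0.0221% rising over all 18130 genes tested), while at an unadjusted p of 0.05 or less 20 fell and 6 rose (20.6% and 6.19%, beside 7.25% and 6.28% of all genes). DESeq2 called 10 members falling and 0 rising: the 6 named above with Lamb1, Lamc3, Col4a1 and Col4a2. Over all 22107 genes it called 156 falling and 100 rising. With all 12 libraries in 1 edgeR fit Col1a2 was called, and without 18M-1 Lamc3 was. Col1a2 had the smallest p in edgeR, with a log2 difference of -1.14 ± 0.19 (SE, adjusted p = 0.18). In 18 members all 3 mice of 18M were below all 3 of 3M and in 6 all were above, which are 18.6% and 6.19%, beside 10.7% and 9.74% of all genes.

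The steps between neighbouring ages were 3, 6 and 6 months long. From 3M to 6M, 0 of 97 members were called (0.0221% falling and 0.0276% rising over all genes), with 5 falling and 4 rising at the unadjusted threshold, beside 1.58% and 2.38% of all genes. From 6M to 12M, 0 of 97 were called (0.0441% falling and 0.0165% rising over all genes), with 18 falling and 4 rising at the unadjusted threshold, beside 4.58% and 4.14% of all genes. From 12M to 18M, 0 of 96 were called (0.0110% falling and 0.0165% rising over all genes), with 1 falling and 0 rising, beside 1.88% and 1.65% of all genes. DESeq2 called 1 member in the middle step (Col1a2) and 0 in the other steps. Over all 22109 genes of the middle step it called 73 falling and 35 rising.

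Most of the fall of the called genes lay in the first 2 steps. For Col1a2 the log2 difference was -0.41 ± 0.15 (SE) from 3M to 6M, -0.53 ± 0.10 from 6M to 12M and -0.19 ± 0.14 from 12M to 18M. Per month of each step these were -0.137 ± 0.050, -0.0885 ± 0.0161 and -0.0313 ± 0.0231, and the first 2 overlap within their SEs on either scale. For Col1a1, Col3a1, Eln and Adamts2 the middle step was -0.54, -0.54, -0.44 and -0.49, the first step between -0.36 and -0.29, and the last between -0.16 and -0.02. Per month, the first step of these 4 genes was between -0.119 and -0.0962 and the middle one between -0.0906 and -0.0728. For Lamc1 the 3 steps were -0.16, -0.18 and -0.20, or -0.0534, -0.0303 and -0.0341 per month. Mean levels fell at each of the 3 steps in 23 of the 98 tested members (23.5%, beside 7.66% of all genes) and rose at each in 4 (4.08%, beside 6.45%). The neighbouring steps share the mice of the age between them, and the difference between steps was not tested.

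The levels of the members per length were led by genes whose main transcript is not the RefSeq one. Of the 112 members, 48 reached a mean of 1 FPKM over the 12 mice. In 91 genes the transcript with the highest FPKM was a RefSeq model (Mmp1b, at 0, is counted there) and in 21 it was a model assembled from these reads. All of these 21 genes were at 1 FPKM or more, and in 19 of them the leading transcript began at least 500 bases inside the gene, counted from the start of its longest RefSeq transcript. Their median level was 3.94 FPKM, beside 0.373 FPKM for the 91. The kinds were set by the same FPKM, and a model can be assembled only where there are reads. The difference in level is therefore a description and not a finding about these genes.

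Col22a1, second among all members at 139 FPKM, drew 138 FPKM from the assembled transcript MSTRG.7139.2. That transcript has 32 exons and 1948 bases where the RefSeq transcript NM_027174 has 64 exons and 6128 bases, it starts 79776 bases downstream of the RefSeq start, and it ends 70370 bases before the RefSeq end. The full RefSeq transcript was at 0.855 FPKM. Col16a1, at 33.2 FPKM, drew 0.116 FPKM from its RefSeq models. Col2a1, the collagen of cartilage, was at 8.73 FPKM, of which 0.0154 was RefSeq and 8.70 came from a model that starts 7070 bases inside the gene. Col4a2, at 4.76 FPKM, drew 4.09 from a model of 8 exons at its 3′ end, and the whole transcript was at 0.663 FPKM.

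The 6 called genes were all led by a RefSeq transcript, as were 77 of the 98 tested members. Of these 77, 24 fell and 3 rose at the unadjusted threshold. Of the 21 led by an assembled transcript, 3 fell (Col4a2, Fbn2 and Lama2), 3 rose and 0 were called, and their median slope was 0.0049 per month, beside -0.0085 in the others. The difference between both kinds was not tested. When transcripts equal to RefSeq were counted alone, Col1a2 was still called and the other 5 were not, at edgeR adjusted p of 0.076 to 0.117. The reads of these 5 are the same under that setting, and their slopes hardly moved, at -0.0654 (Col1a1), -0.0673 (Col3a1), -0.0610 (Eln), -0.0354 (Lamc1) and -0.0570 (Adamts2).

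**Figure D4:**
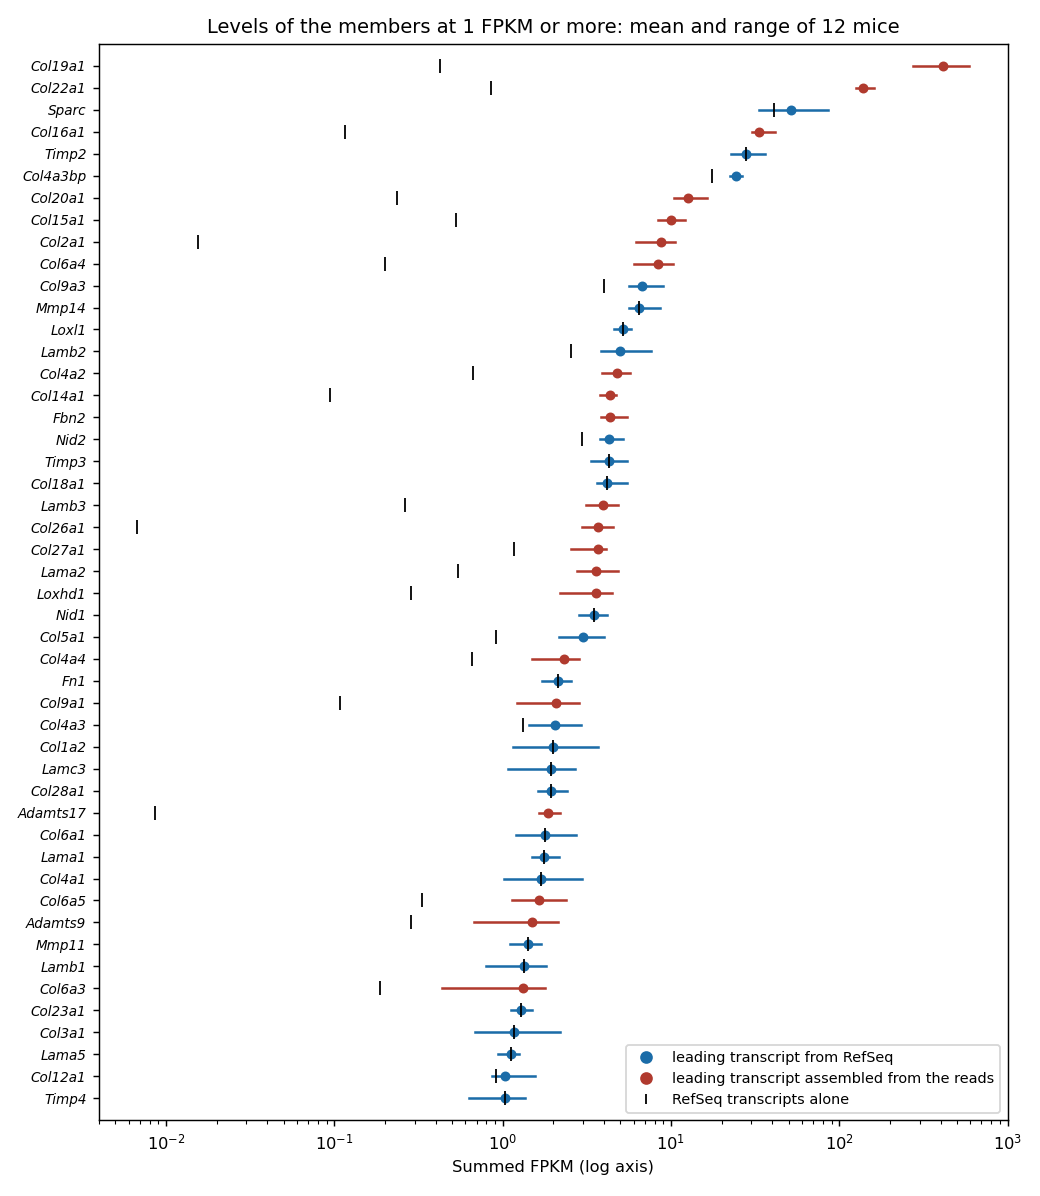
Summed FPKM of the 48 members at 1 FPKM or more, on a log axis: the mean of the 12 mice as a point and the lowest and highest mouse as the ends of the line. Blue genes are led by a RefSeq transcript and red genes by one assembled from the reads, and the black mark is the RefSeq part alone, which is at 0 for Fbn2 and so not drawn. In the red genes where it is drawn, the black mark lies to the left of the point. The distance is large for Col22a1 (0.855 of 139 FPKM) and small for Col27a1 (1.17 of 3.66 FPKM).

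The member with the highest summed level, Col19a1, drew nearly all of that sum from outside the annotated collagen gene. Its summed FPKM was between 375 and 592 in 3M, between 395 and 471 in 6M, between 394 and 437 in 12M and between 275 and 433 in 18M, but the RefSeq transcript NM_007733 held 0.298 to 0.582 FPKM in each mouse. The rest came from 2 assembled transcripts of the minus strand of chromosome 1 (mm10), MSTRG.102.1 and MSTRG.102.2, which were joined to the gene by exons of 14 and 10 bases. Their long exons, at 24611541 to 24616184 and 24613231 to 24615550, lie upstream of the start of Col19a1. They took 53.7% of all reads of the 112 members.

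The longer exon covers 7 annotated unprocessed pseudogenes (GENCODE vM21). Each of them matched a gene of the mitochondrial genome along its length without gaps. Gm28439 equalled mt-Nd4 in all 876 bases compared, Gm28437 equalled mt-Co3 in all 783, Gm28661 equalled mt-Co2 in all 681, Gm10925 equalled mt-Atp6 in all 678 and Gm10222 equalled mt-Nd4l in all 294. Gm28438 matched mt-Nd3 in 344 of 345 bases and Gm29216 matched mt-Co1 in 486 of 492. Reads of these mitochondrial RNAs and of the identical copies on chromosome 1 cannot be told apart. MSTRG.102.1 alone held 99.1% of the summed FPKM of Col19a1, with 0 bases on annotated exons of that gene. The Col19a1 sum is therefore not a level of the collagen. Without both transcripts, the members together were at 415 to 480 FPKM in each mouse in place of 703 to 1038.

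**Figure D5:**
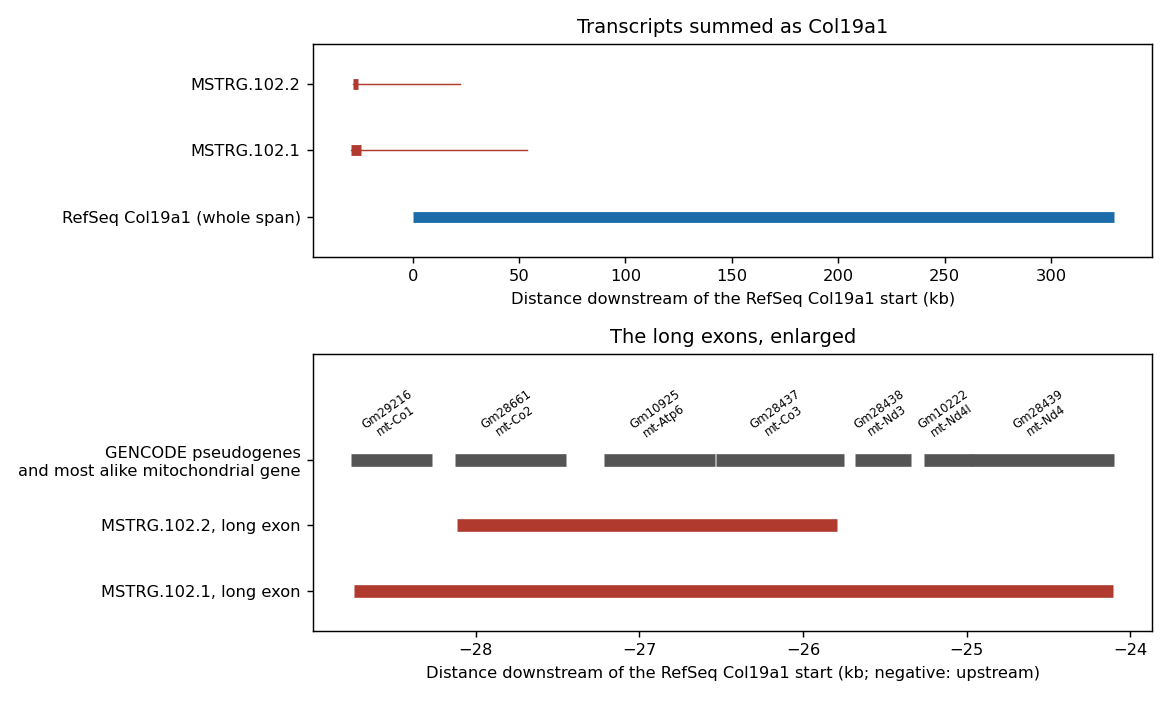
Transcripts summed as Col19a1 by distance from the RefSeq start in kilobases, to scale, with negative values upstream. The upper panel has the whole RefSeq gene in blue and the assembled transcripts in red, thick at exons and thin at introns. The lower panel enlarges both long exons and sets the 7 pseudogenes, with the mitochondrial gene each one matches, above them. The long exons lie upstream of the gene and on the pseudogenes.

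The genes that act on or around the members were counted in the same fit, from lists of related genes. Over all genes tested, 9.23% fell and 8.26% rose at the unadjusted threshold. At the adjusted threshold 0.313% were called falling and 0.0971% rising. Of 21 tested genes for collagen folding and processing, 4 fell at the unadjusted threshold and 0 were called. Of 29 proteoglycans and other matrix proteins, 11 fell and 1 rose, and 1 was called, Mfap4, a microfibril-associated protein that binds elastin (slope -0.064 per month, edgeR adjusted p = 0.044). Of 20 matrix receptors, 3 fell at the unadjusted threshold and 0 were called. The genes named next were picked among those that fell. Plod2, which makes the crosslinking hydroxylysines of collagen, had a slope of -0.043 (edgeR adjusted p = 0.099), Bgn (biglycan) one of -0.031 (edgeR adjusted p = 0.113), and Itgb1, the common beta integrin, one of -0.028 (edgeR adjusted p = 0.081). None of the X-linked genes Col4a5, Col4a6 and Timp1 reached the unadjusted threshold.

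Markers of other cell types moved with some of these results. Their counts stand beside 9.23% falling and 8.26% rising at the unadjusted threshold over all genes tested, and 0.313% called falling. All 8 Leydig cell markers were tested, of which 7 fell at the unadjusted threshold and 3 were called: Cyp17a1 (slope -0.097 per month), Cyp11a1 (-0.107) and Lhcgr (-0.095). Their summed level was 1018 to 1176 FPKM in 3M, 940 to 1717 in 6M, 771 to 826 in 12M and 704 to 975 in 18M, and none was at 0. Of 6 fibroblast and stromal markers, 3 fell at the unadjusted threshold and 0 were called. Their summed level was 11.7 to 16.4 FPKM in 3M, with 3M-2 the highest, 13.3 to 15.2 in 6M, 11.2 to 12.4 in 12M, and 10.3 to 14.5 in 18M, with 18M-1 the highest. Pdgfra, a marker of stromal cells, was at 8.52 CPM in 18M-1 and at 4.98 and 5.77 CPM in the other mice of 18M. Dcn, Nr2f2 and Tcf21 were also highest of 18M in 18M-1, but Dpt and Lum did not share this difference. Dpt was nearly level in 18M, at 0.335, 0.322 and 0.312 CPM. Lum was at 1.398 CPM in 18M-1 and at 1.409 CPM in 18M-3. The slopes of Lum and Tcf21 were above 0, at 0.0151 and 0.000949 per month. The part of these cell types in the fall of the collagens was not tested.

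Other lists had fewer calls. At the unadjusted threshold, 9.23% of all genes tested fell and 8.26% rose. Of 7 endothelial markers 2 fell, and of 8 macrophage markers 1 fell, at that threshold. Of 10 Sertoli cell markers and 4 blood markers, 0 reached it, and of 7 peritubular myoid markers 1 rose. Of 11 germ cell markers 1 fell and 3 rose. Of the epididymis markers 2 of 6 were at 0 in all mice, and of the mesothelium markers 3 of 4 had a mean under 0.1 FPKM. Mouse 6M-3, where Mmp23 was high, had the highest sum in 8 of the 14 lists, among them the Leydig (1717 FPKM, beside at most 1176 in the others), Sertoli (605, at most 492) and macrophage markers (33.8, at most 26.8) and the matrix receptors (61.2, at most 55.8). Another of these 8 lists was that of Col4a5, Col4a6 and Timp1 (5.05 FPKM in 6M-3, beside 1.73 to 2.78 in the other mice).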

How the data were processed

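Total RNA of 12 testes was depleted of ribosomal RNA and sequenced in pairs without strand marking. The authors mapped reads to mm10 with HISAT2, and StringTie 1.3.3b built 1 merged set of transcripts and quantified it. The deposited table holds an estimated count per transcript and library, which the authors did not normalize, and an FPKM, which they scaled by transcript length and library size. Transcripts of class =, c, j or o (equal to, within, sharing a junction with, or otherwise overlapping a reference transcript) were summed per gene symbol. The test on estimated counts was that of edgeR 4.0.16 (R 4.3.3; TMM, filterByExpr, quasi-likelihood F-test, Benjamini-Hochberg over all genes), with 12 libraries for the slope on age in months and 6 for each pair of ages. Calls needed an adjusted p of 0.05 or less. DESeq2 1.42.0 was an alternative. Python 3.11.15 served for the other steps. On simulated counts with 200 genes changed 4-fold, the slope recovered 97.0% of 200 genes, with 12 false calls among 18394 genes. The called members changed less than 4-fold, and recovery of changes of their size was not simulated.

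The naming rule took the 3 members with the highest FPKM per class, those called in any test, the 5 smallest p in the slope, and those at 0 reads. Other members were named after their values were seen. The members and lists were chosen with earlier results of these data known. Each library was 1 mouse.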

Additional observations from a re-analysis of the deposited data

Results flagged for a closer look

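Transcripts that carry a member's symbol but are read from its opposite strand (class x) or lie inside an intron (class i) took no part in the sums. There were 17 of them in 10 genes, and 9 in 7 genes had a mean of 1 FPKM or more and were above 0 in every mouse. They are given because they are signals outside the measured sums, in data with no control samples to compare. The highest was MSTRG.103.6, of class x at Col19a1, with a mean of 10.8 FPKM and a range of 1.06 to 38.2, which runs over the place of the mitochondrial pseudogenes described above. MSTRG.21191.1, in an intron of Col12a1, had 4.27 FPKM (3.49 to 4.65), while the sum of Col12a1 itself was 1.03 FPKM. MSTRG.481.1, of class x at Col4a4, had 3.83 FPKM (2.86 to 5.13).

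Of the other 6, MSTRG.5915.1 and MSTRG.5915.2 in an intron of Nid2 had 2.28 and 1.22 FPKM, MSTRG.12550.1 of class x at Col20a1 had 1.88 FPKM, and MSTRG.2764.1 of class x at Adamts2 had 1.54 FPKM. MSTRG.9556.1 of class x at Lama3 and MSTRG.101.1 of class x at Col19a1 had 1.32 FPKM each. The Adamts2 transcript was at 0.988 to 2.04 FPKM, above the 0.389 FPKM of Adamts2, which was called falling. With all class codes summed, the slope of Adamts2 was -0.0239 per month in place of -0.0583, and it was not called. Without strand marking, the strand of these transcripts is the assembler's call.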

How the results depend on the processing

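The slope on age gave 6 falling members. The count was 27 at an unadjusted p, 3 without the filter on low counts, 13 with DESeq2, 3 with all class codes, 1 with class = only, and 1 to 13 when 1 mouse was left out. Over all genes the falling calls moved as well, from 58 to 336 with DESeq2 and to between 13 and 163 with 1 mouse left out. Rising members numbered 0, then 6 at an unadjusted p and 1 with DESeq2. From 3M to 18M, 0 falling members became 20 at an unadjusted p, 10 with DESeq2, 1 with all 12 libraries in the fit and 0 to 1 with 1 mouse left out (1 without 18M-1, Lamc3), and 0 rising became 6 at an unadjusted p. At an unadjusted p there were 5 falling and 4 rising from 3M to 6M, 18 and 4 from 6M to 12M, and 1 falling from 12M to 18M, while DESeq2 called 1 from 6M to 12M. The cause of these moves was not tested. The slopes of Col16a1 and Col5a1 turned to -0.07565 and -0.07258 with class = only. Of 126 alternatives for the 6 called slopes, 71 kept the call, 55 lost it and 0 changed sign. Without class o transcripts, chosen after seeing the data, 5 members were called and the members' summed level was 442.6 in place of 858.2 FPKM. Mice of 1 number did not deviate together (Pearson r -0.054 to 0.154, over 0.1 in 1 of 18 pairs, and 5 of 12 libraries correlated best with their own number), and a replicate block left 5 falling members called, 3 of them among the 6. Depth limits the 14 untested members, at 0 to 49 reads.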
